A study of Homo sapiens with 9 samples.

Results

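The genes described here encode proteins that build, cut, cap, cross-link and anchor actin filaments, together with the transcription factor SRF, measured in a neuroblastoma cell line treated with a statin. They are the symbols of the array's probe annotation that begin with, or equal, a fixed set of family names (for example DIAPH, FMN, TMOD, TPM, VCL, ZYX and SRF), with 1 probeset taken per symbol, the one with the highest mean over the 9 arrays. This gave 70 genes of 14884 named genes. Of these, 55 were protein-coding and 15 were pseudogenes or long non-coding RNAs that carry a family name. CFLAR, an apoptosis regulator that shares only its first letters with the cofilins, was matched as well and is kept in the counts. Of the 32 name patterns, 9 met no named probeset, so the main actin isoforms, the actinins, the filamins, non-muscle myosin heavy chains, myosin light chains, capping protein and the ARPC subunits of the Arp2/3 complex were not analysed here. The only symbol found for ACTG1 or ACTG2 was the pseudogene ACTG1P25.

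Total RNA came from SMS-KCNR, an established human neuroblastoma line grown in serum-containing medium. One group of cells received 5 µM simvastatin with 2 mM mevalonate, another 5 µM simvastatin alone, and the third the solvent DMSO, each for 30 hours and each with 3 arrays. All groups share 1 cell line, so nothing here speaks to other lines or to tumours. The series' text calls the samples independent but leaves unsaid whether each was its own culture, so p-values measure only the spread between these arrays, which may be technical. Values are log2 signals per probeset as deposited, and they are compared between arrays only within a probeset.

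Statins block HMG-CoA reductase, the enzyme that makes mevalonate, the precursor of cholesterol and of the isoprenoid lipids that anchor many signalling proteins to membranes. Adding mevalonate supplies the product of the blocked step. Formins and other nucleators assemble actin filaments from monomers. Monomeric actin holds the MRTF coactivators in the cytoplasm, and when monomers are used up MRTF enters the nucleus and works with SRF. SRF binds a sequence known as the CArG box, and its classical targets include genes of actin itself, of focal adhesions and of the contractile apparatus, as well as SRF's own gene.

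Because SRF acts through the CArG box, promoters of the members were read from RefSeq sequence (GRCh38.p14), from 250 bases before to 50 bases after each annotated start. Entries were found for 55 of the 70 members, with 83 windows. A perfect CArG box, on either strand, was present in windows of 3 of these 55 genes (5.45%). In the whole table it was present in 438 of 27305 genes (1.6%). A gene can have several windows, and counted per window the shares were 3.61% for members and 1.29% for the whole table. All 3 genes, SRF, TPM4 and CNN2, were among the 12 members higher with simvastatin than with DMSO. The match describes letters in a window and does not by itself show binding. The 3 windows are shown because they carry the only perfect boxes among the members, with the boxes in capitals and each window read on the plus strand. The windows are chr6:43171019-43171318 for SRF, chr19:16067288-16067587 for TPM4 and chr19:1026358-1026657 for CNN2.
SRF: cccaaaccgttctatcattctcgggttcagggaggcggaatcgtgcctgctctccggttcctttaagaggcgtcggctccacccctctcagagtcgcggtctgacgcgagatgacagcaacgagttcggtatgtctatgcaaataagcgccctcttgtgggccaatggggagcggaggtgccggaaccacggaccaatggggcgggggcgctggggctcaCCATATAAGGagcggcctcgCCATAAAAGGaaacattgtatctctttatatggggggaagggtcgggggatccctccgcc
TPM4: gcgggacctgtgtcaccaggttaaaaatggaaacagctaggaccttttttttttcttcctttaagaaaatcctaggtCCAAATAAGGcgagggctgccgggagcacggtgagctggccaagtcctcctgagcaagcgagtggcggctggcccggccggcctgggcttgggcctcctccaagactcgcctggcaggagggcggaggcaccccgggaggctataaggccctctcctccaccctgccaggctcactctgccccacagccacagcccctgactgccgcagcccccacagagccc
CNN2: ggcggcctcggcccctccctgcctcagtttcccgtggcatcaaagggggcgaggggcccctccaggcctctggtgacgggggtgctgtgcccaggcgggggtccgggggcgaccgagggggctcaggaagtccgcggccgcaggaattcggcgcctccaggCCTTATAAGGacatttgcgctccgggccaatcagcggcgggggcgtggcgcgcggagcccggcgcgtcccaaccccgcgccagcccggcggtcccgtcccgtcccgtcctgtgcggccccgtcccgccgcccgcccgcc

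SRF's window held a pair of boxes, CCATATAAGG from 30 to 21 bases before the start and CCATAAAAGG from 10 to 1 bases before it. In TPM4 the box CCAAATAAGG lay 173 to 164 bases before the start. The CNN2 box, CCTTATAAGG, lay 89 to 80 bases before the start and reads the same on both strands. Allowing up to 1 mismatch in the A/T core added 6 genes. These were ZYX (CCTTGTATGG), TMOD1 (CCTAAAGTGG), CFL2 (CCTTATGAGG), VASP (CCCTTTAAGG), TMOD3 (CCATAGTAGG) and VILL (CCAGTAAAGG). With that looser rule 9 of 55 member genes held a box (16.4%), against 9.88% of all genes in the table. Counted per window, the shares lay closer, at 10.8% for members and 8.13% for the whole table. By response, a box was held by 6 of the 12 members higher with simvastatin. It was held by 0 of 2 matched members lower with simvastatin and 3 of 41 with no call. The groups are small and the split by response was made after the responses were known, so no test is given.

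**Figure D1:**
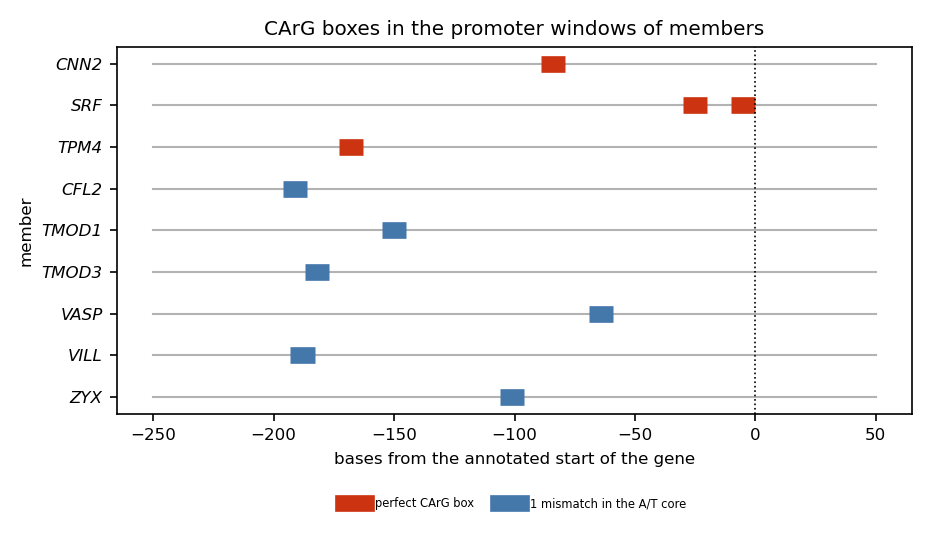
Positions of CArG boxes in member promoters, as the distance in bases from the annotated start, for perfect boxes and boxes with 1 mismatch. Each row is a gene, and the SRF row holds 2 perfect boxes within 30 bases of the start.

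Simvastatin changed 16 of the 70 members relative to DMSO (22.9%), with 12 higher and 4 lower, at an adjusted p under 0.05 by limma over all 14884 genes. Among all named genes 13.4% changed, with 5.98% higher and 7.38% lower. The share of members that were higher was 17.1% and the share that were lower was 5.71%. The median log2 difference was 0.05 over the members and 0.01 over all genes. Arrays of simvastatin and DMSO did not overlap in 32 of the 70 members, against 28.6% of all named genes. The genes that rose were SRF, the formins FMN1, DAAM1 and FHOD3, the focal adhesion genes ZYX and VCL, TMOD1, TPM4, CNN2, ACTR3, CFL2 and WASL. The members that fell were WASHC5, TAGLN3, TLN2 and PFN2. The arrays measured RNA from whole cultures, in which fewer cells of a type and less RNA per cell cannot be told apart.

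With mevalonate added to simvastatin, 19 members changed relative to simvastatin alone (27.1%), with 4 higher and 15 lower. Over all named genes the shares were 11.0% changed, 5.31% higher and 5.72% lower. Among members 5.71% were higher and 21.4% were lower, and the median log2 difference was -0.05, against 0.00 over all genes. Arrays did not overlap in 32 of 70 members, against 27.3% of all named genes. This comparison uses the same simvastatin arrays as the one with DMSO, so the pair is not independent. Values for both are given side by side for the members called in either. For most other members no value for the comparison with mevalonate is given. FHOD1, VASP, TAGLN2 and the long non-coding CNN3-DT passed the threshold in this comparison and not in that with DMSO. WASL passed it with simvastatin against DMSO and had a log2 difference of -0.11 between simvastatin plus mevalonate and simvastatin (adjusted p = 0.127). No test of the difference between the comparisons was made.

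**Figure D2:**
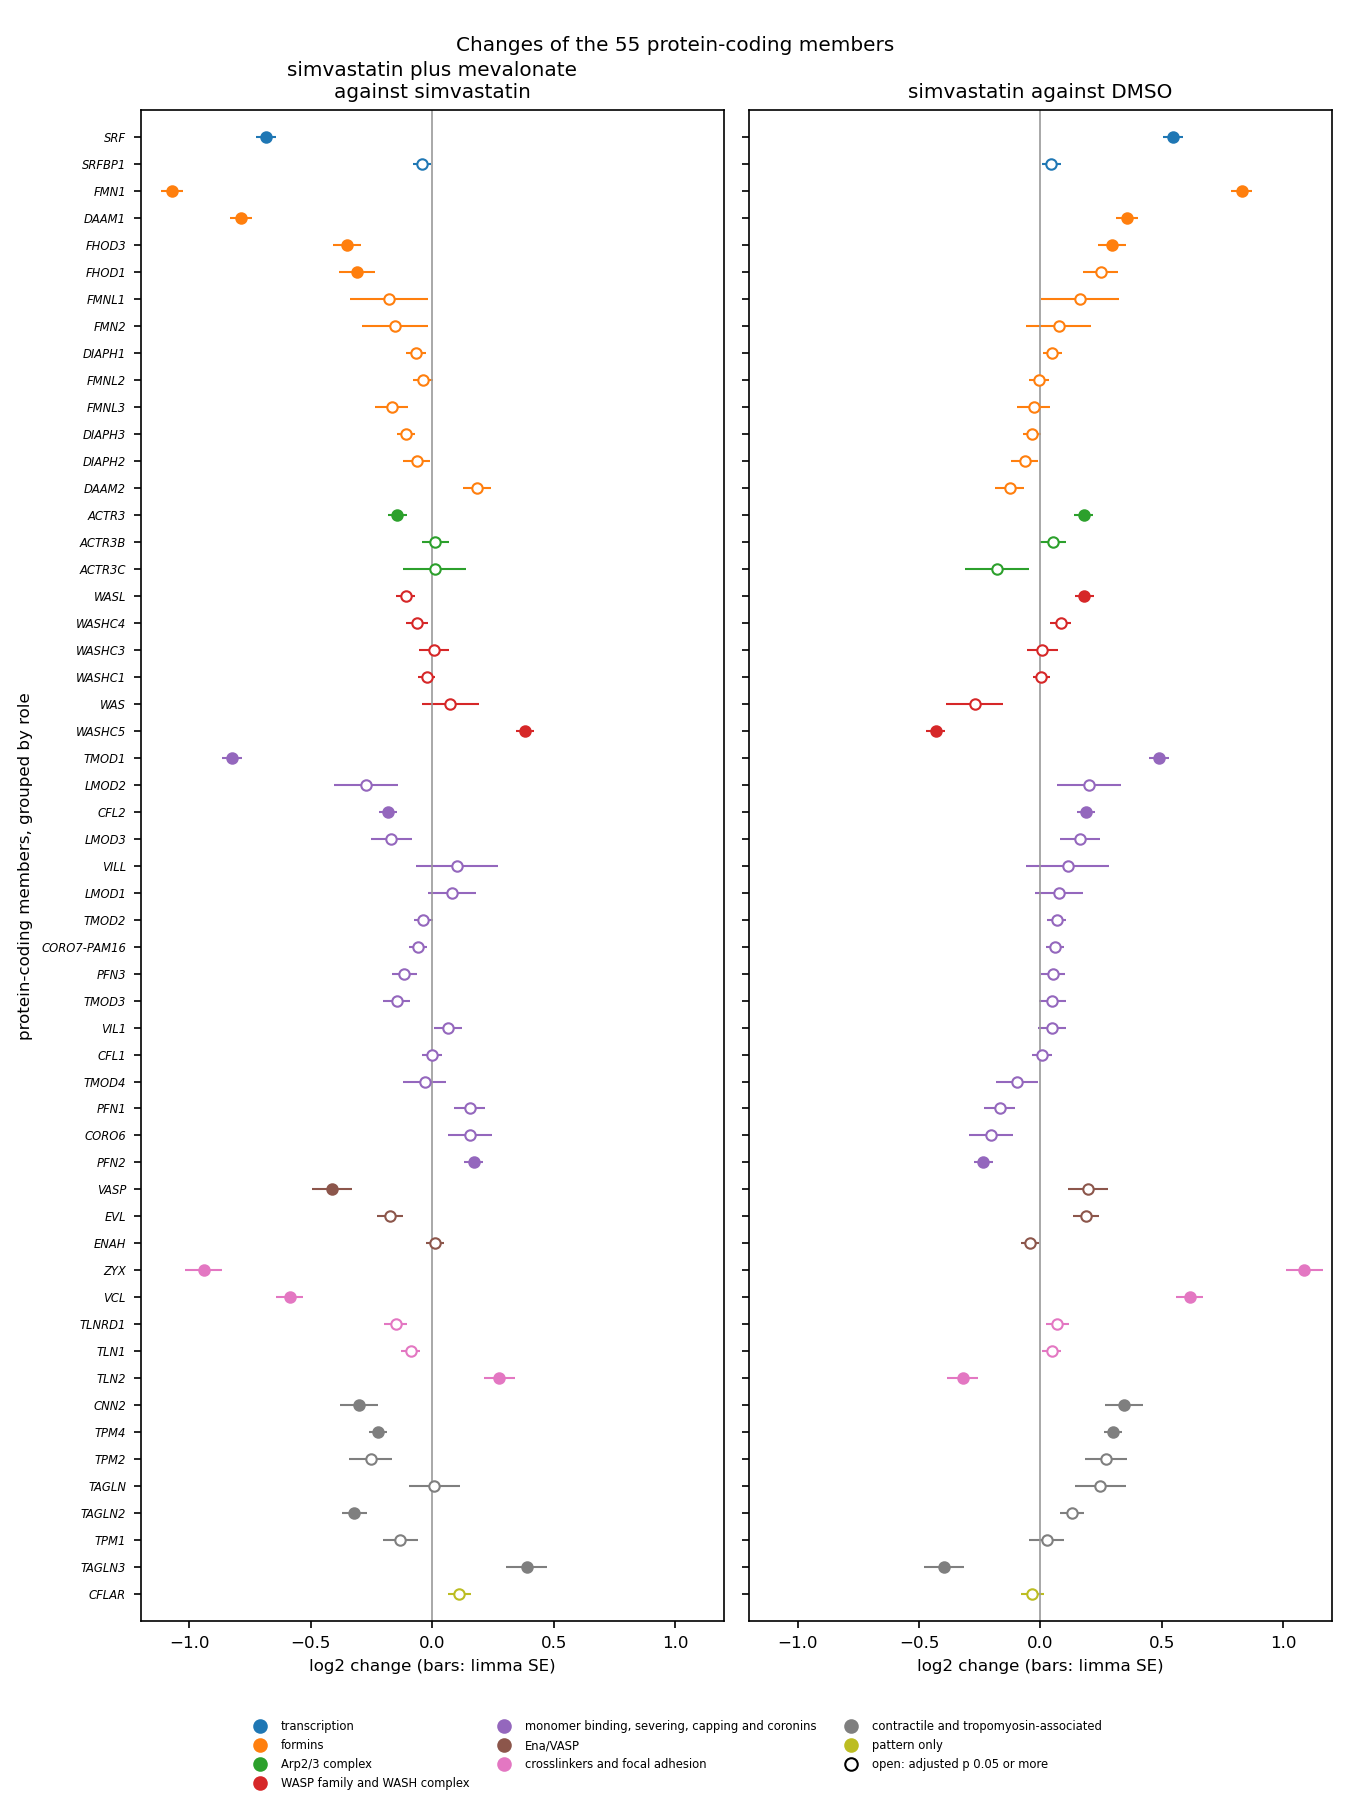
Log2 changes of the 55 protein-coding members, with limma standard errors, for simvastatin plus mevalonate against simvastatin (left panel) and simvastatin against DMSO (right panel). Filled points passed an adjusted p of 0.05. ZYX and FMN1 lie furthest right for simvastatin against DMSO and furthest left for simvastatin plus mevalonate against simvastatin.

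SRF, the factor that names the set, was measured at log2 values of 8.54, 8.65 and 8.63 with simvastatin plus mevalonate, 9.30, 9.29 and 9.29 with simvastatin and 8.74, 8.75 and 8.75 with DMSO (probeset 17008856, chromosome 6). The 3 simvastatin arrays were nearly identical and lay above every other array, and the simvastatin plus mevalonate arrays lay below the DMSO arrays. SRF was 0.55 ± 0.04 (log2, limma SE) higher with simvastatin than with DMSO, a 1.46-fold difference (adjusted p = 8.86e-05). With mevalonate added its log2 difference from simvastatin alone was -0.68 ± 0.04 (adjusted p = 3.9e-05). SRFBP1, which encodes a protein that binds SRF, differed by 0.05 ± 0.04 between simvastatin and DMSO (adjusted p = 0.519) and by -0.04 ± 0.04 between simvastatin plus mevalonate and simvastatin (adjusted p = 0.572).

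Formins nucleate and elongate unbranched actin filaments. Of 12 formin genes, 3 rose (25%) and none fell with simvastatin relative to DMSO, against 5.98% and 7.38% of all named genes. With simvastatin plus mevalonate relative to simvastatin, 4 fell (33.3%) and none rose, against 5.72% and 5.31% of all named genes. At an unadjusted p under 0.05 by limma, no formin gene was lower in the first comparison, against 13.5% of all named genes. In the second comparison 1 was higher, against 11.8% of all named genes. FMN1, encoding formin 1, had log2 values of 7.33, 7.27 and 7.21 with simvastatin plus mevalonate, 8.30, 8.35 and 8.38 with simvastatin and 7.53, 7.49 and 7.52 with DMSO (probeset 16806757, chromosome 15). The simvastatin arrays stood well above both other groups, which also did not overlap each other. FMN1 was 1.78-fold higher with simvastatin than with DMSO (0.83 ± 0.04, adjusted p = 2.11e-05). Relative to simvastatin alone it was 2.10-fold lower with mevalonate added (-1.07 ± 0.04, adjusted p = 1.26e-05), and by p-value it ranked 6 of 14884 genes in that comparison.

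DAAM1, a formin that acts in Wnt signalling, was measured at log2 values of 6.65, 6.59 and 6.62 with simvastatin plus mevalonate, 7.47, 7.35 and 7.39 with simvastatin and 7.09, 7.04 and 7.02 with DMSO (probeset 16784787, chromosome 14). Its groups were fully separated in the order simvastatin, DMSO, simvastatin plus mevalonate, from high to low. The difference between simvastatin and DMSO was 0.36 ± 0.05 (adjusted p = 0.00118), and that between simvastatin plus mevalonate and simvastatin was -0.79 ± 0.05 (adjusted p = 2.88e-05). FHOD3, a formin known from sarcomere assembly in heart muscle, had log2 values of 7.61, 7.66 and 7.56 with simvastatin plus mevalonate, 8.06, 7.95 and 7.87 with simvastatin and 7.61, 7.69 and 7.70 with DMSO (probeset 16852025, chromosome 18). Simvastatin arrays were again the highest, and the other groups overlapped. FHOD3 was 0.29 ± 0.06 higher with simvastatin than with DMSO (adjusted p = 0.011). Between simvastatin plus mevalonate and simvastatin it differed by -0.35 ± 0.06 (adjusted p = 0.00545).

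Its relative FHOD1 fell by 0.31 ± 0.07 with simvastatin plus mevalonate relative to simvastatin (adjusted p = 0.0292) and differed by 0.25 ± 0.07 between simvastatin and DMSO (adjusted p = 0.0631). That FHOD1 call needed all of replicates 2 and 3 of both groups, since leaving out any of these 4 arrays ended it (adjusted p = 0.0622 to 0.0908). The diaphanous formins DIAPH1, DIAPH2 and DIAPH3 passed the threshold in neither comparison. DIAPH1 had log2 differences of 0.05 between simvastatin and DMSO and -0.07 between simvastatin plus mevalonate and simvastatin. For DIAPH2 the same differences were -0.07 and -0.06, and for DIAPH3 they were -0.04 and -0.11. The other formins without a call were DAAM2, FMN2, FMNL1, FMNL2 and FMNL3, with log2 differences between simvastatin and DMSO from -0.13 (DAAM2) to 0.16 (FMNL1).

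Focal adhesions tie integrins at the cell surface to actin filaments inside. Of 5 genes in this role, 2 rose (40%) and 1 fell (20%) with simvastatin relative to DMSO, against 5.98% and 7.38% of all named genes. With simvastatin plus mevalonate relative to simvastatin, 1 rose (20%) and 2 fell (40%), against 5.31% and 5.72% of all named genes. At an unadjusted p under 0.05 by limma, 1 was higher (20%) and 4 were lower (80%) in that comparison. The shares over all named genes were 11.8% and 11.9%. ZYX encodes zyxin, a LIM-domain protein of focal adhesions and stress fibres, and had log2 values of 7.00, 7.12 and 6.91 with simvastatin plus mevalonate, 8.06, 7.85 and 7.95 with simvastatin and 6.96, 6.80 and 6.83 with DMSO (probeset 17052823, chromosome 7). All simvastatin arrays lay above all others, while the simvastatin plus mevalonate and DMSO arrays overlapped. ZYX had the largest difference of any member between simvastatin and DMSO, 2.12-fold (1.09 ± 0.08, adjusted p = 6.01e-05). With simvastatin plus mevalonate it was 1.92-fold lower than with simvastatin (-0.94 ± 0.08, adjusted p = 0.000164).

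VCL encodes vinculin, which binds talin and actin, and was measured at log2 values of 8.88, 9.08 and 8.90 with simvastatin plus mevalonate, 9.55, 9.50 and 9.58 with simvastatin and 8.91, 8.95 and 8.92 with DMSO (probeset 16706200, chromosome 10). The pattern was that of ZYX, with only the simvastatin arrays set apart. VCL was 1.53-fold higher with simvastatin than with DMSO (0.61 ± 0.06, adjusted p = 0.00025) and 1.50-fold lower with simvastatin plus mevalonate than with simvastatin (-0.59 ± 0.06, adjusted p = 0.000399). Talins connect integrin tails to actin and bind vinculin. TLN2, encoding talin 2, moved the other way and had log2 values of 6.80, 6.76 and 6.82 with simvastatin plus mevalonate, 6.51, 6.56 and 6.48 with simvastatin and 6.77, 6.76 and 6.99 with DMSO (probeset 16801707, chromosome 15). Here the simvastatin arrays were the lowest, and 1 DMSO array stood above the other arrays. TLN2 fell by 0.32 ± 0.06 with simvastatin relative to DMSO (adjusted p = 0.0126) and rose by 0.28 ± 0.06 with simvastatin plus mevalonate relative to simvastatin (adjusted p = 0.0278). The second of these calls ended when any 1 array of simvastatin or of simvastatin plus mevalonate was left out (adjusted p = 0.0508 to 0.0922). TLN1, the other talin, differed by 0.05 ± 0.04 between simvastatin and DMSO (adjusted p = 0.516), and TLNRD1, a talin-related gene, by 0.07 ± 0.05 (adjusted p = 0.414).

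**Figure D3:**
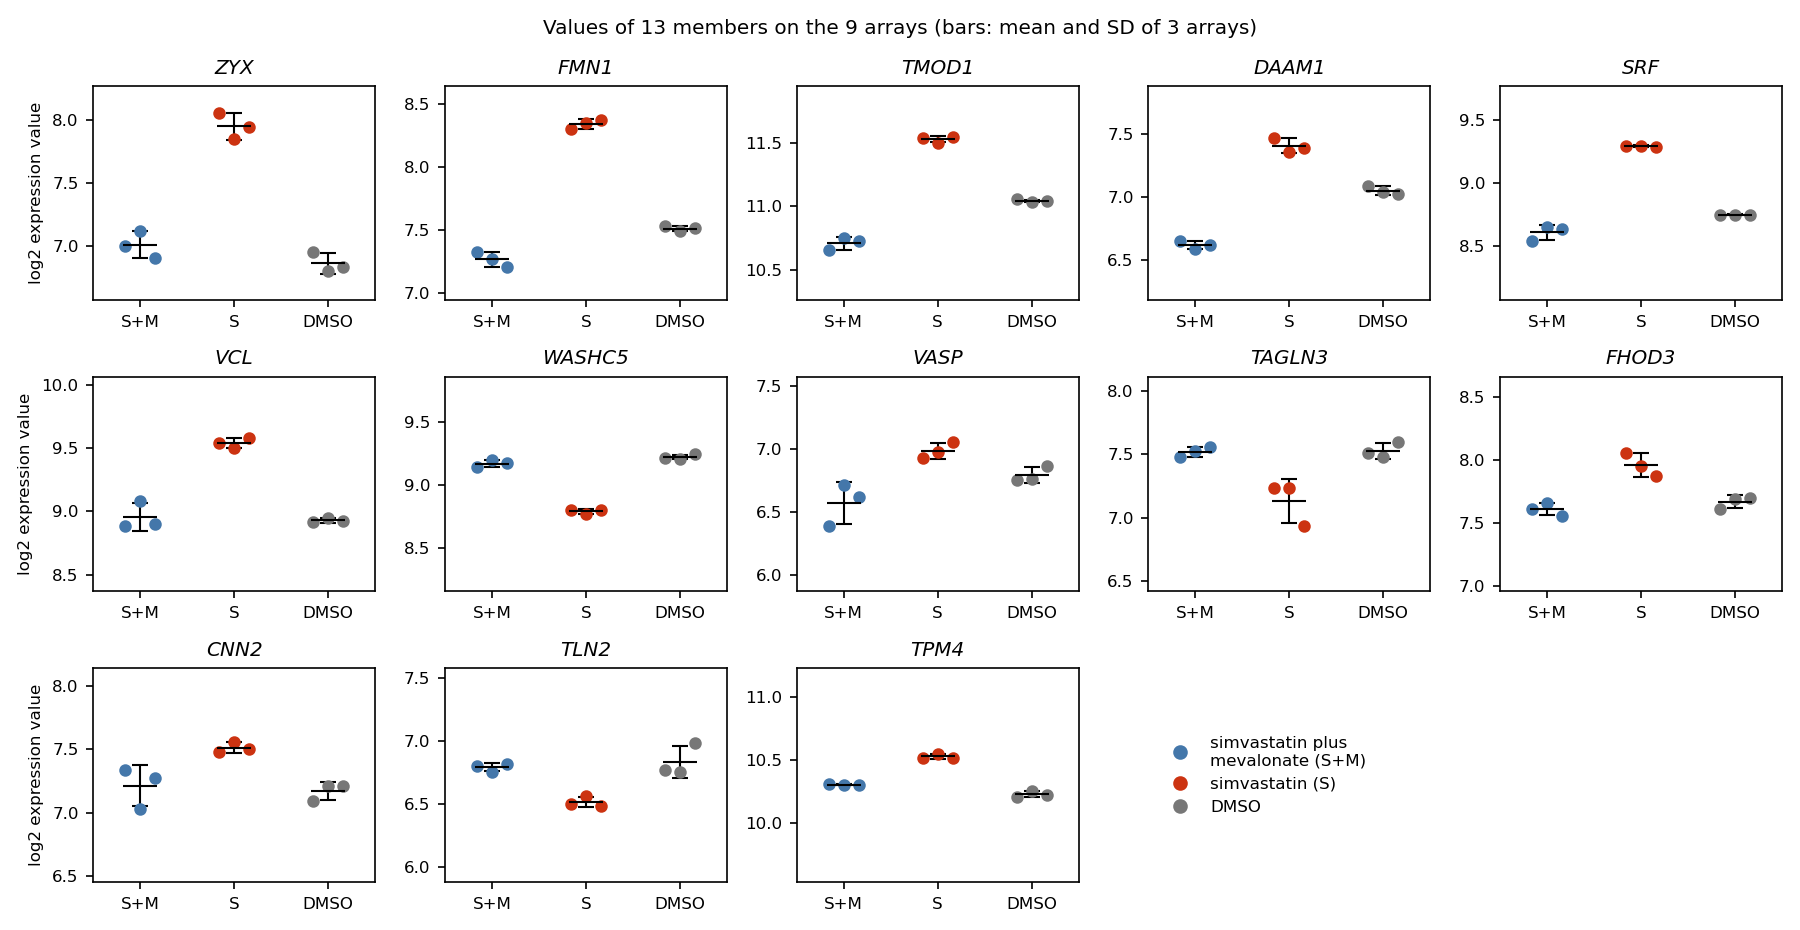
Log2 values of 13 members on each of the 9 arrays, by group (S+M, simvastatin plus mevalonate; S, simvastatin), with the mean and SD of 3 arrays. For SRF, FMN1, ZYX and TMOD1 all 3 simvastatin arrays lie above all other arrays, and for WASHC5 all 3 lie below.

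Proteins that bind monomers or that cut and cap filaments set how fast actin turns over. Of 16 members in this role, 2 rose (12.5%) and 1 fell (6.25%) with simvastatin relative to DMSO, against 5.98% and 7.38% of all named genes. With simvastatin plus mevalonate relative to simvastatin, 1 rose (6.25%) and 2 fell (12.5%), against 5.31% and 5.72% of all named genes. TMOD1 encodes tropomodulin 1, which caps the slow-growing ends of filaments, and had log2 values of 10.65, 10.75 and 10.72 with simvastatin plus mevalonate, 11.55, 11.50 and 11.55 with simvastatin and 11.06, 11.03 and 11.04 with DMSO (probeset 17087329, chromosome 9). The groups did not overlap, and simvastatin plus mevalonate arrays were the lowest. TMOD1 was 0.49 ± 0.04 higher with simvastatin than with DMSO (adjusted p = 0.000137), and its difference between simvastatin plus mevalonate and simvastatin was -0.82 ± 0.04 (adjusted p = 1.6e-05). The other tropomodulins passed no threshold, with log2 differences between simvastatin and DMSO of 0.07 for TMOD2, 0.05 for TMOD3 and -0.10 for TMOD4.

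CFL2 encodes a cofilin, which severs filaments, and was 0.19 ± 0.04 higher with simvastatin than with DMSO (adjusted p = 0.0138) and differed by -0.18 ± 0.04 between simvastatin plus mevalonate and simvastatin (adjusted p = 0.0186). The first call ended when DMSO replicate 3 was left out (adjusted p = 0.0522), and the second when replicate 3 of simvastatin, or replicate 1 or 2 of simvastatin plus mevalonate, was (adjusted p = 0.0517 to 0.0616). CFL1, the other cofilin, differed by 0.01 ± 0.04 between simvastatin and DMSO. Its value was the same, 5.48, on every simvastatin and every simvastatin plus mevalonate array, so a lack of response cannot be read from it. PFN2, a profilin abundant in neurons that loads monomers onto growing filaments, fell by 0.24 ± 0.04 with simvastatin relative to DMSO (adjusted p = 0.00575). PFN2 rose by 0.17 ± 0.04 with mevalonate added (adjusted p = 0.0286), which ended on leaving out replicate 1 or 3 of simvastatin, or replicate 1 or 2 of simvastatin plus mevalonate (adjusted p = 0.0652 to 0.09). PFN1, the widely expressed profilin, differed by -0.17 ± 0.06 between simvastatin and DMSO (adjusted p = 0.141). The 13 members of this role without a call, which also include the leiomodins LMOD1 to LMOD3, the villins VIL1 and VILL, the coronin genes CORO6 and CORO7-PAM16 and the testis profilin PFN3, had log2 differences between simvastatin and DMSO from -0.20 (CORO6) to 0.20 (LMOD2).

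Branched actin is nucleated by the Arp2/3 complex, which WASP-family proteins activate. ACTR3, encoding its Arp3 subunit, was 0.18 ± 0.04 higher with simvastatin than with DMSO (adjusted p = 0.0176) and differed by -0.14 ± 0.04 between simvastatin plus mevalonate and simvastatin (adjusted p = 0.0489). The first ACTR3 call ended on leaving out replicate 2 or 3 of DMSO or replicate 3 of simvastatin (adjusted p = 0.0524 to 0.0612), and the second without any 1 of the 9 arrays (adjusted p = 0.0512 to 0.131). WASL, encoding N-WASP, was 0.18 ± 0.04 higher with simvastatin than with DMSO (adjusted p = 0.0173), but not with replicate 1 or 2 of DMSO left out (adjusted p = 0.051 to 0.0599). WASHC5 encodes strumpellin, a subunit of the WASH complex that directs actin assembly on endosomes. Its log2 values were 9.14, 9.20 and 9.18 with simvastatin plus mevalonate, 8.81, 8.77 and 8.80 with simvastatin and 9.22, 9.21 and 9.25 with DMSO (probeset 17080946, chromosome 8). The simvastatin arrays lay below all others by more than the spread within any group. WASHC5 was 1.35-fold lower with simvastatin than with DMSO (-0.43 ± 0.04, adjusted p = 0.000164) and 1.30-fold higher with simvastatin plus mevalonate than with simvastatin (0.38 ± 0.04, adjusted p = 0.000411). The other measured WASH subunits, WASHC1, WASHC3 and WASHC4, had log2 differences between simvastatin and DMSO of 0.00, 0.01 and 0.08, and none passed the threshold. Also without a call between simvastatin and DMSO were WAS, the blood-cell family member (-0.27), and the Arp3-related genes ACTR3B (0.05) and ACTR3C (-0.18).

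Ena/VASP proteins speed up filament growth at leading edges and focal adhesions. None of the 3 genes passed the threshold between simvastatin and DMSO by limma, and 2 had an unadjusted p under 0.05, as did 25.6% of all named genes. VASP had log2 values of 6.39, 6.71 and 6.62 with simvastatin plus mevalonate, 6.93, 6.98 and 7.05 with simvastatin and 6.75, 6.76 and 6.86 with DMSO (probeset 16863307, chromosome 19). Simvastatin arrays were the highest, and simvastatin plus mevalonate arrays lay below the DMSO arrays. VASP fell by 0.41 ± 0.08 with simvastatin plus mevalonate relative to simvastatin (adjusted p = 0.0137) and differed by 0.19 ± 0.08 between simvastatin and DMSO (adjusted p = 0.181). EVL, a VASP relative, differed by 0.19 ± 0.05 between simvastatin and DMSO, just outside the threshold (adjusted p = 0.0523). For ENAH, the vertebrate Enabled gene, the difference was -0.04 ± 0.04 (adjusted p = 0.53).

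Tropomyosins lie along filaments, and calponins and transgelins bind them alongside. Of 7 genes in this role, 2 rose (28.6%) and 1 fell (14.3%) with simvastatin relative to DMSO, against 5.98% and 7.38% of all named genes. With simvastatin plus mevalonate relative to simvastatin, 1 rose (14.3%) and 3 fell (42.9%), against 5.31% and 5.72% of all named genes. TPM4, a non-muscle tropomyosin gene with a CArG box in its promoter window, had log2 values of 10.31, 10.30 and 10.31 with simvastatin plus mevalonate, 10.52, 10.55 and 10.52 with simvastatin and 10.21, 10.26 and 10.23 with DMSO (probeset 16859253, chromosome 19). Every simvastatin array lay above every other array by more than the range of any group. TPM4 was 0.30 ± 0.04 higher with simvastatin than with DMSO (adjusted p = 0.000932) and differed by -0.22 ± 0.04 between simvastatin plus mevalonate and simvastatin (adjusted p = 0.00489). TPM1 and TPM2 passed no threshold, with log2 differences between simvastatin and DMSO of 0.03 ± 0.07 (adjusted p = 0.867) and 0.27 ± 0.09 (adjusted p = 0.0848).

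CNN2, encoding calponin 2 and also holding a CArG box, had log2 values of 7.34, 7.03 and 7.27 with simvastatin plus mevalonate, 7.48, 7.56 and 7.50 with simvastatin and 7.09, 7.21 and 7.21 with DMSO (probeset 16856350, chromosome 19). The simvastatin arrays were the highest, and 1 simvastatin plus mevalonate array reached 7.34. CNN2 was 0.34 ± 0.08 higher with simvastatin than with DMSO (adjusted p = 0.0233), and simvastatin plus mevalonate differed from simvastatin by -0.30 ± 0.08 (adjusted p = 0.0457). A second, dimmer CNN2 probeset did not show it, with log2 differences of 0.05 ± 0.06 in each of these comparisons (adjusted p over all probesets of 0.754 and 0.744). The mean of both probesets gave 0.20 (adjusted p = 0.0779) and -0.12 (adjusted p = 0.274). Leaving out any DMSO array, or simvastatin replicate 2 or 3, ended the first call (adjusted p = 0.0515 to 0.0811), and leaving out any array but simvastatin plus mevalonate replicate 1 ended the second (adjusted p = 0.0599 to 0.124).

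TAGLN3, a transgelin of neuronal cells, had log2 values of 7.48, 7.53 and 7.56 with simvastatin plus mevalonate, 7.23, 7.24 and 6.93 with simvastatin and 7.52, 7.48 and 7.60 with DMSO (probeset 16943879, chromosome 3). Simvastatin arrays were the lowest, 1 of them well under the others. TAGLN3 fell by 0.40 ± 0.08 with simvastatin relative to DMSO (adjusted p = 0.015) and rose by 0.39 ± 0.08 with simvastatin plus mevalonate relative to simvastatin (adjusted p = 0.0195). The first call ended on leaving out DMSO replicate 3 (adjusted p = 0.0565) and the second on leaving out replicate 2 or 3 of simvastatin plus mevalonate (adjusted p = 0.0627 to 0.0702). TAGLN2, its widely expressed relative, fell by 0.32 ± 0.05 with simvastatin plus mevalonate relative to simvastatin (adjusted p = 0.00429) and differed by 0.13 ± 0.05 between simvastatin and DMSO (adjusted p = 0.142). TAGLN, the smooth muscle transgelin and a classical SRF target, had a mean log2 value of 5.14, under the median of all probesets (5.19), and differed by 0.25 ± 0.10 between simvastatin and DMSO (adjusted p = 0.185).

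Among the 15 pseudogene and non-coding symbols, none changed between simvastatin and DMSO by limma, and 3 reached an unadjusted p under 0.05 (20.0%, against 25.6% of all named genes). Their log2 differences ran from -0.35 (ACTR3BP2) to 0.29 (PFN1P2). CFLAR, matched by name only, differed by -0.03 (adjusted p = 0.715). CNN3-DT, a long non-coding RNA gene beside the calponin gene CNN3, fell by 0.32 ± 0.04 with simvastatin plus mevalonate relative to simvastatin (adjusted p = 0.00235). Its difference between simvastatin and DMSO was 0.03 ± 0.04 (adjusted p = 0.754). Pseudogene transcripts can share probes with their parent genes, so their values are uncertain. Of all members, 14 had a mean under the median of all probesets, and none of these was called in any comparison by limma. Between simvastatin and DMSO 3 of them (21.4%) had an unadjusted p under 0.05, against the same 25.6% of all named genes.

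Simvastatin plus mevalonate was also set against DMSO. Of the 70 members 2 were lower (2.86%) and none was higher, where limma called 0.0739% of all named genes, 11 in number, with 0.0336% higher and 0.0403% lower. At an unadjusted p under 0.05, 10 members were lower (14.3%) and 1 was higher (1.43%), against 6.36% and 4.63% of all named genes. The 2 members were DAAM1 and TMOD1. DAAM1 was 1.35-fold lower with simvastatin plus mevalonate than with DMSO (-0.43 ± 0.05, 95% interval -0.53 to -0.33, adjusted p = 0.0183). TMOD1 was 1.26-fold lower (-0.33 ± 0.04, 95% interval -0.43 to -0.24, adjusted p = 0.0387). Both genes were higher with simvastatin alone than with DMSO, so their simvastatin plus mevalonate values lay on the other side of DMSO. Leaving out any DMSO or simvastatin plus mevalonate array ended the DAAM1 call (adjusted p = 0.0738 to 0.128), and leaving out any of the 9 arrays ended that of TMOD1 (adjusted p = 0.0594 to 0.169). The other genes called in this comparison, none of them members, included the cholesterol synthesis genes HMGCS1, MSMO1 and ACAT2, all higher with simvastatin plus mevalonate than with DMSO.

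With mevalonate present, 28 of the 70 members had a mean above that of DMSO, with log2 differences up to 0.32 and none past the threshold. Several further members named as changed lay below DMSO without passing the threshold, and examples follow. FMN1 differed by -0.24 between simvastatin plus mevalonate and DMSO (95% interval -0.35 to -0.14, adjusted p = 0.0977), CNN3-DT by -0.29 (adjusted p = 0.0587), VASP by -0.22 (adjusted p = 0.393) and SRF by -0.14 (95% interval -0.23 to -0.04, adjusted p = 0.286). In each of these 4 the arrays of the groups did not overlap. TAGLN2 differed by -0.19 (adjusted p = 0.223). Over all members 18 of 70 were separated in this way between these groups, against 16.5% of all named genes. Of the focal adhesion genes, ZYX lay above DMSO by 0.15 (95% interval -0.03 to 0.32). VCL differed by 0.03 (95% interval -0.10 to 0.16). For WASHC5 the interval was -0.14 to 0.03. These intervals are per gene and not adjusted, and they do not show that the groups were equal.

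**Figure D4:**
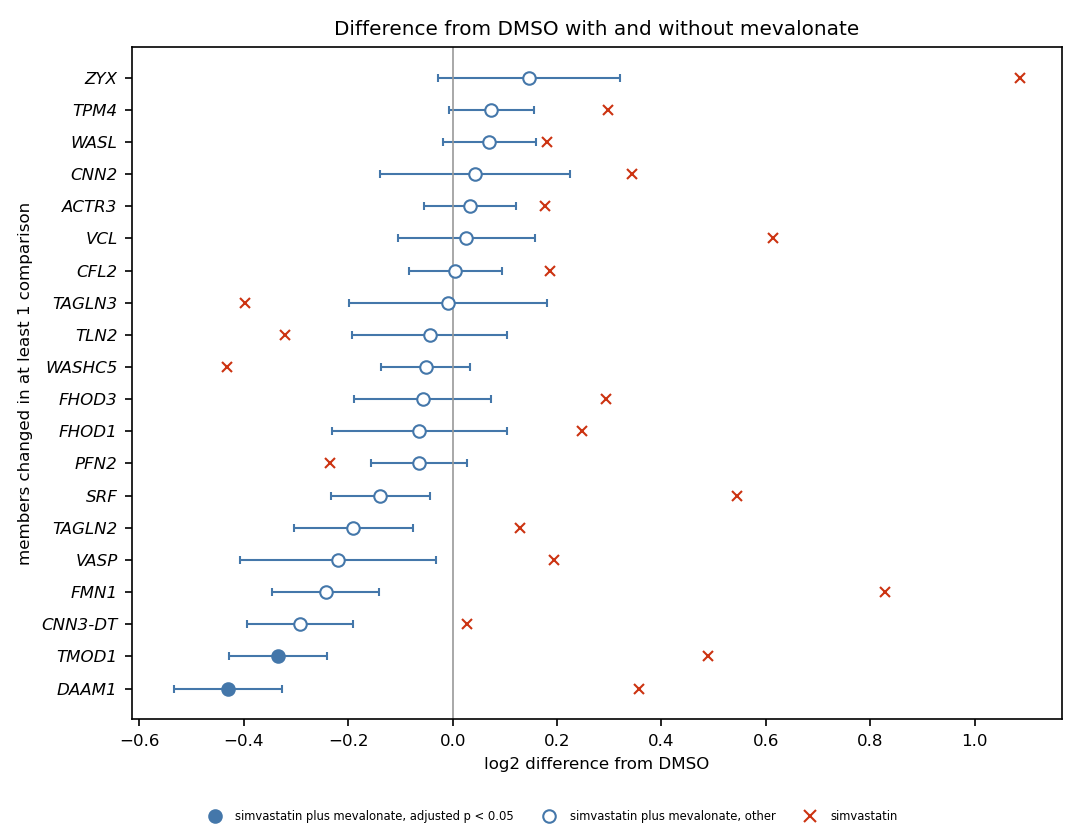
Log2 difference from DMSO for the 20 members changed in at least 1 comparison, with simvastatin plus mevalonate (circles, bars for the 95% interval) and with simvastatin alone (crosses). DAAM1 and TMOD1, on the positive side with simvastatin, lie on the negative side with mevalonate added (-0.43 and -0.33).

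Other genes of the same pathway, named from a list of 81 of which 53 were measured, were examined in the same fit. Simvastatin raised 10 (18.9%) and lowered 4 (7.55%) of the 53 relative to DMSO, where 5.98% of all named genes were higher and 7.38% lower. With simvastatin plus mevalonate relative to simvastatin, 5 were higher (9.43%) and 13 lower (24.5%), against 5.31% and 5.72% of all named genes. Between simvastatin plus mevalonate and DMSO limma called none, and 10 (18.9%) had an unadjusted p under 0.05, against 11.0% of all named genes. Enzymes that attach isoprenoids to proteins had no named probeset and were not analysed here.

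Among kinases and phosphatases that act on actin regulators, SSH1, a phosphatase that activates cofilin, had log2 values of 6.55, 6.37 and 6.53 with simvastatin plus mevalonate, 7.12, 7.14 and 7.18 with simvastatin and 6.52, 6.40 and 6.53 with DMSO. Only the simvastatin arrays stood apart. SSH1 was 1.58-fold higher with simvastatin than with DMSO (adjusted p = 0.000224) and 1.59-fold lower with simvastatin plus mevalonate than with simvastatin (adjusted p = 0.000289). SSH2, its relative, fell by 0.21 ± 0.06 with simvastatin relative to DMSO (adjusted p = 0.0458), which was lost when any array but simvastatin replicate 1 was left out (adjusted p = 0.0587 to 0.128). With mevalonate added, SSH2 differed from simvastatin alone by 0.26 (adjusted p = 0.0205). That call ended without replicate 2 or 3 of simvastatin, or replicate 1 or 3 of simvastatin plus mevalonate (adjusted p = 0.0605 to 0.0764).

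SRF works with the coactivators MRTFA and MRTFB. MRTFB had log2 values of 9.19, 9.21 and 9.19 with simvastatin plus mevalonate, 8.73, 8.84 and 8.76 with simvastatin and 9.06, 9.10 and 9.06 with DMSO. Its simvastatin arrays were the lowest, the reverse of SRF. MRTFB fell by 0.29 ± 0.04 with simvastatin relative to DMSO (adjusted p = 0.00239) and rose by 0.42 ± 0.04 with simvastatin plus mevalonate relative to simvastatin (adjusted p = 0.000485). MRTFA differed by 0.08 ± 0.08 between simvastatin and DMSO (adjusted p = 0.562). Between simvastatin plus mevalonate and simvastatin it differed by -0.27 ± 0.08, just outside the threshold (adjusted p = 0.0547) and opposite in sign to MRTFB. FHL2, a LIM-only protein that binds SRF, was 1.49-fold higher with simvastatin than with DMSO (adjusted p = 0.000728) and 1.50-fold lower with mevalonate added (adjusted p = 0.000851).

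Of 8 measured transcripts known as SRF targets, 3 rose with simvastatin relative to DMSO (37.5%), against 5.98% of all named genes. They were the early-response genes EGR3 (0.39, adjusted p = 0.0103), JUNB (0.35, adjusted p = 0.015) and IER2 (0.42, adjusted p = 0.00965). The JUNB call ended on leaving out DMSO replicate 1 (adjusted p = 0.0556). All 3 fell with simvastatin plus mevalonate relative to simvastatin, by 0.58, 0.46 and 0.43 in the same order. FOS differed by 0.36 (adjusted p = 0.193), EGR1 by -0.20 (adjusted p = 0.0757) and CCN2 by -0.07 (adjusted p = 0.729) between simvastatin and DMSO. The same difference was -0.08 for FOSB (adjusted p = 0.378) and 0.06 for MCL1 (adjusted p = 0.578).

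EZR encodes ezrin, which links actin to the plasma membrane, and had log2 values of 9.78, 9.71 and 9.72 with simvastatin plus mevalonate, 10.85, 10.86 and 10.79 with simvastatin and 9.97, 9.83 and 9.90 with DMSO. The simvastatin arrays stood well above the rest. EZR was 1.90-fold higher with simvastatin than with DMSO (adjusted p = 1.73e-05) and 2.13-fold lower with mevalonate added (adjusted p = 1.31e-05). RDX, encoding the related radixin, was 0.21 ± 0.04 higher with simvastatin than with DMSO (adjusted p = 0.013). The filament bundlers LCP1 (-0.44, adjusted p = 0.00341) and PLS3 (-0.45, adjusted p = 0.011) fell with simvastatin relative to DMSO. With mevalonate added, RDX differed from simvastatin alone by -0.19 (adjusted p = 0.0242), LCP1 by 0.37 (adjusted p = 0.00898) and PLS3 by 0.36 (adjusted p = 0.0333). Leaving out 1 array could end these RDX and PLS3 calls (adjusted p up to 0.0819 and 0.105). Supervillin (SVIL), destrin (DSTN) and thymosin beta 10 (TMSB10) did not pass the threshold between simvastatin and DMSO, and each was lower with simvastatin plus mevalonate than with simvastatin, with log2 differences of -0.48, -0.31 and -0.35. Whether the comparisons differ was not tested.

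In the focal adhesion list, 3 of 19 measured genes rose with simvastatin relative to DMSO (15.8%), against 5.98% of all named genes. These were PDLIM7 (0.53, adjusted p = 0.00943), TGFB1I1 (0.52, adjusted p = 0.0199) and FERMT2 (0.18, adjusted p = 0.0194). They encode a LIM-domain scaffold, a paxillin relative and the integrin activator kindlin 2. The TGFB1I1 call ended on leaving out replicate 2 or 3 of DMSO, or replicate 1 or 3 of simvastatin (adjusted p = 0.0569 to 0.0689), and that of FERMT2 on leaving out replicate 2 of either group (adjusted p = 0.0597 to 0.0692). With simvastatin plus mevalonate relative to simvastatin, 3 of the 19 fell (15.8%), against 5.72% of all named genes. They were PDLIM7 (-0.41, adjusted p = 0.0334), TGFB1I1 (-0.45, adjusted p = 0.0435) and FERMT2 (-0.18, adjusted p = 0.0221). Leaving out 1 array could end each of these calls (adjusted p up to 0.132). PTK2B, an adhesion kinase, was 0.25 ± 0.05 higher in that comparison (adjusted p = 0.0141), which was lost without simvastatin plus mevalonate replicate 3 (adjusted p = 0.0557).

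**Figure D5:**
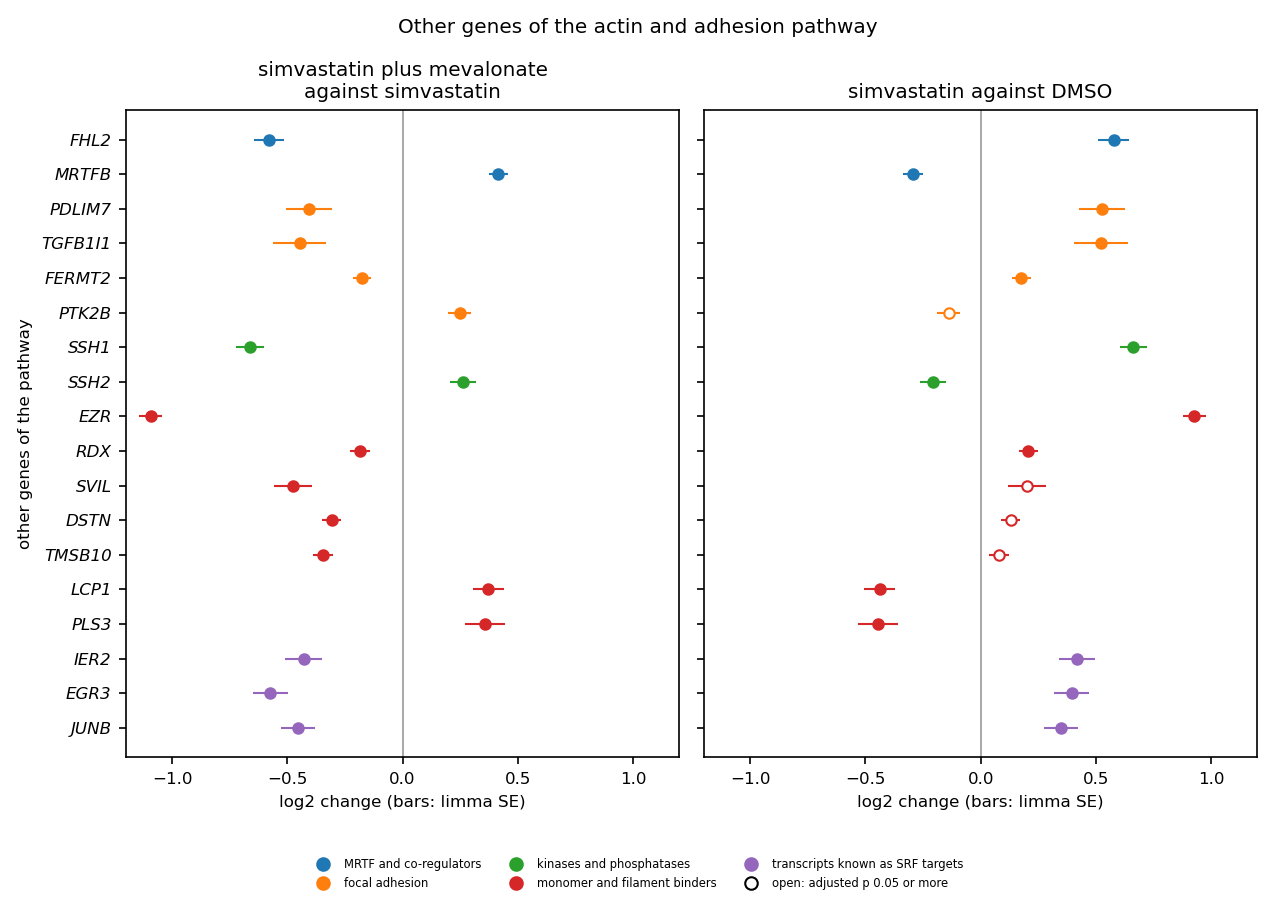
Log2 changes of the other actin and adhesion genes past the threshold, with limma standard errors, for simvastatin plus mevalonate against simvastatin (left panel) and simvastatin against DMSO (right panel). EZR and SSH1 lie furthest right for simvastatin against DMSO, where LCP1 and PLS3 lie on the negative side.

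Markers of the labelled cell type and of other cells were read on the same arrays. Of 8 measured noradrenergic neuroblast markers, 6 fell with simvastatin relative to DMSO, and 5 rose with simvastatin plus mevalonate relative to simvastatin, against 7.38% and 5.31% of all named genes. Their mean log2 value per array was 9.91 to 9.98 with simvastatin plus mevalonate, 9.57 to 9.59 with simvastatin and 10.01 to 10.03 with DMSO. Those that fell were GATA3, ISL1, TH, DBH, CHGA and CHGB, which encode neuroblast transcription factors, catecholamine-making enzymes and granule proteins. PHOX2A (-0.02, adjusted p = 0.868) and HAND2 (-0.01, adjusted p = 0.886), the other measured markers, had no call between simvastatin and DMSO. The part of these markers in the changes of the actin genes was not tested. Smooth muscle markers, which overlap in function with the contractile genes, had means per array of 5.29 to 5.39 with simvastatin plus mevalonate, 5.22 to 5.42 with simvastatin and 5.25 to 5.44 with DMSO over the 3 of 6 measured. None of the 3 changed between simvastatin and DMSO by limma, and none had an unadjusted p under 0.05. Over all groups, means per array ran from 5.17 to 5.49 for the 2 measured markers of skeletal and cardiac muscle, from 4.65 to 5.05 for the blood marker CD14 and from 4.51 to 4.77 for 3 endothelial markers. The fibroblast markers had no named probeset and were not analysed here.

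Arrays of 1 group correlated at 0.9941 to 0.9964 over the 14884 named genes. Between simvastatin plus mevalonate and DMSO arrays the range was 0.9941 to 0.9958, against 0.990 to 0.9917 between simvastatin and DMSO arrays. Array medians ran from 5.17 to 5.21. Values were identical on at least 2 arrays for 5 of the 20 members named as changed (CFL2, FHOD1, TAGLN2, TAGLN3 and TLN2). Of the 37 calls made on members over the 3 comparisons, 23 were kept under all 17 alternative settings, 14 were lost under at least 1, and none was reversed.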

How the data were processed

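RNA of SMS-KCNR cells was labelled with biotin and hybridised to 9 Affymetrix arrays of 1 channel each, per the labels. The deposited values are log2 signals, 1 per probeset and array, made by the authors. The log2 scale was read from the values. Per the submitters' processing notes GCRMA and HOMER were used, with roles and settings not given in the sources used here. Normalization between arrays would hide a shift of all genes in 1 direction.

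Of 53617 probesets, 16098 carried 1 gene symbol (30.02%) and gave 14884 genes. Groups were taken from the labels, and 3 comparisons were fitted in 1 limma model (version 3.58.1, R 4.3.3; lmFit and eBayes, 6 residual degrees of freedom), with Benjamini-Hochberg adjustment over all 14884 genes and a threshold of 0.05. The procedure was tested on simulated data. The number of arrays limits the precision, and no detection calls were used. Intervals cover 95% per gene.

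Named were all members past the threshold in any comparison, with values on every array for the 12 of largest change and for TPM4, added because of its promoter box, and other pathway genes past the threshold. The members and lists were chosen with earlier results of these data known. No source says whether equal replicate numbers mark pairs. Over 9 same-numbered pairs the correlations of deviations from group means ran from -0.0806 to 0.0505, which does not show that the samples were unpaired. Alternatives changed the normalization, the choice of probeset, the filter on dim genes, the eBayes options, the block, the groups fitted, the adjustment and the arrays used. Promoters came from a RefSeq table (GRCh38.p14) in windows of 300 bases, matched by gene ID. A group of other pathway genes is not reported here.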

Additional observations from a re-analysis of the deposited data

How the results depend on the processing

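Array number and dim signal limit these data: 14 members lay under the median of all probesets. Between simvastatin and DMSO the 12 higher members ranged from 8 to 15 over the settings that kept all arrays and from 9 to 13 when 1 array was left out. The 4 lower members ranged from 3 to 5 when 1 array was left out, and all genes called from 1461 to 1744. Against the 1988 reported, all genes called ran from 1426 to 2479 over the settings that kept all arrays.

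Between simvastatin plus mevalonate and simvastatin, the 15 lower members ranged from 11 to 13 without 1 array, the 4 higher members from 1 to 4, and all genes called from 1121 to 1482. The higher members numbered 1 (TAGLN3, TLN2 and PFN2 lost) when p-values were adjusted over all probesets. The count of 1 came without simvastatin plus mevalonate replicate 2, and 2 without simvastatin replicate 1 or simvastatin plus mevalonate replicate 1 or 3.

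Between simvastatin plus mevalonate and DMSO, the 2 lower members became 4 with dim genes left out and 5 with trend and robust fitting. They became 0 with only the groups compared (11 at an unadjusted p under 0.05), 0 with adjustment over all probesets (9 unadjusted) and 0 to 1 without 1 array. By limma the higher members numbered 0 in each of these and without any 1 array (0 to 3 at an unadjusted p under 0.05). The 11 genes called of all tested became 105 with dim genes left out, 223 with trend and robust fitting, 0 with only the groups compared (1671 unadjusted), 7 probesets with adjustment over all probesets and 0 to 12 without 1 array. The cause of these moves was not tested. Allowing 1 mismatch raised the promoters with a CArG box to 9, against 3.

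The replicate number was also used as a block, although no source pairs samples by it. With this block, the members higher in simvastatin plus mevalonate than in simvastatin numbered 1. Those lower in simvastatin plus mevalonate than in DMSO numbered 0 (10 at an unadjusted p under 0.05 by limma). All genes called in that comparison numbered 0 (1505 unadjusted). The block left 9 members higher and 4 lower with simvastatin than with DMSO. Among other pathway genes, 20 of 32 calls were kept under all 17 settings, 12 were lost under at least 1 and 0 were reversed.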
